A study of Mus musculus with 4 samples.

Results

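Oral dosing with a mix of 4 antibiotics was compared directly with oral dosing with vancomycin alone, by 16S rRNA gene sequencing of mouse feces on day 4. The fecal libraries were chosen from the authors' sample sheets as those of day 4, oral route and either antibiotic label. This gave 4 oral mix samples and 6 oral vancomycin samples of 91 day 4 libraries and 198 libraries in all. The question was which bacteria that rise under vancomycin alone are missing when the other 3 drugs are added.

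The mice were wild-type C57BL/6J, 8 to 12 weeks old. The mix held ampicillin, metronidazole, neomycin and vancomycin, so vancomycin was common to both groups. Each dose was 2.5 mg in 100 µl phosphate-buffered saline (PBS), with 2 doses daily for 3 days, a final dose on day 4 and euthanasia 4 hours after it. Whether 2.5 mg was the amount of each drug in the mix or of all together is not given in the sources used here. Oral PBS (5 samples) and oral ampicillin (5 samples) served as background groups, and for 6 vancomycin mice and 3 of the mix mice a day 0 library was also at hand.

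Vancomycin binds the peptide ends of the growing cell wall of Gram-positive bacteria, does not pass the outer membrane of most Gram-negative bacteria, and after oral dosing stays largely in the gut. Ampicillin is a β-lactam that blocks cell wall synthesis in a wider range of species. Neomycin is an aminoglycoside that acts on the ribosomes of aerobic and facultative Gram-negative bacteria, and metronidazole kills anaerobes. Blooms of Enterobacteriaceae such as Escherichia after oral vancomycin are well known in mice.

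Every oral vancomycin library came from sequencing run ok122. The oral mix came from both runs: replicate 1 and 1 of the 2 samples numbered 2 belonged to ok122, and the other sample numbered 2 and replicate 3 belonged to run SB1. Depth, recovered from the smallest steps of the table, was 11999 reads for mix replicate 1, 57476 for replicate 2 of run SB1, 556 for replicate 2 of run ok122 and 76424 for replicate 3. The vancomycin libraries held 1151 to 20443 reads. In the mix sample of 556 reads, a genus listed at 0 may have had a share of up to 0.540% (3 reads), against at most 0.0250% in the other mix samples. Intervals and limits of this kind cover counting error only. The samples were named by mouse, so each was taken as a separate animal. All values are shares of reads, so a fall of a genus and a rise of the others cannot be told apart.

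Bacteria that made up almost the whole community under vancomycin held a small share of reads under the mix. At day 4, 7 of 95 genera tested were higher in oral vancomycin than in oral PBS (7.37%), and these bloom genera together took 98.5% ± 1.53 (SD, n = 6) of reads, with a lowest sample of 96.2%. Under the mix the same genera summed to 0.267% in replicate 1, 0.221% in replicate 2 of run SB1, 0% in replicate 2 of run ok122 and 9.15% in replicate 3. In oral PBS their sum was 0.165% to 0.932%. Over all reads, mix replicate 3 was thus the only mix sample above the PBS range. With the reads of Burkholderia left out and shares rescaled, the sums in the mix were 3.28%, 5.49%, 0% and 9.16%, so that 3 of the 4 mix samples were above the PBS range of 0.165% to 0.932%.

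**Figure D1:**
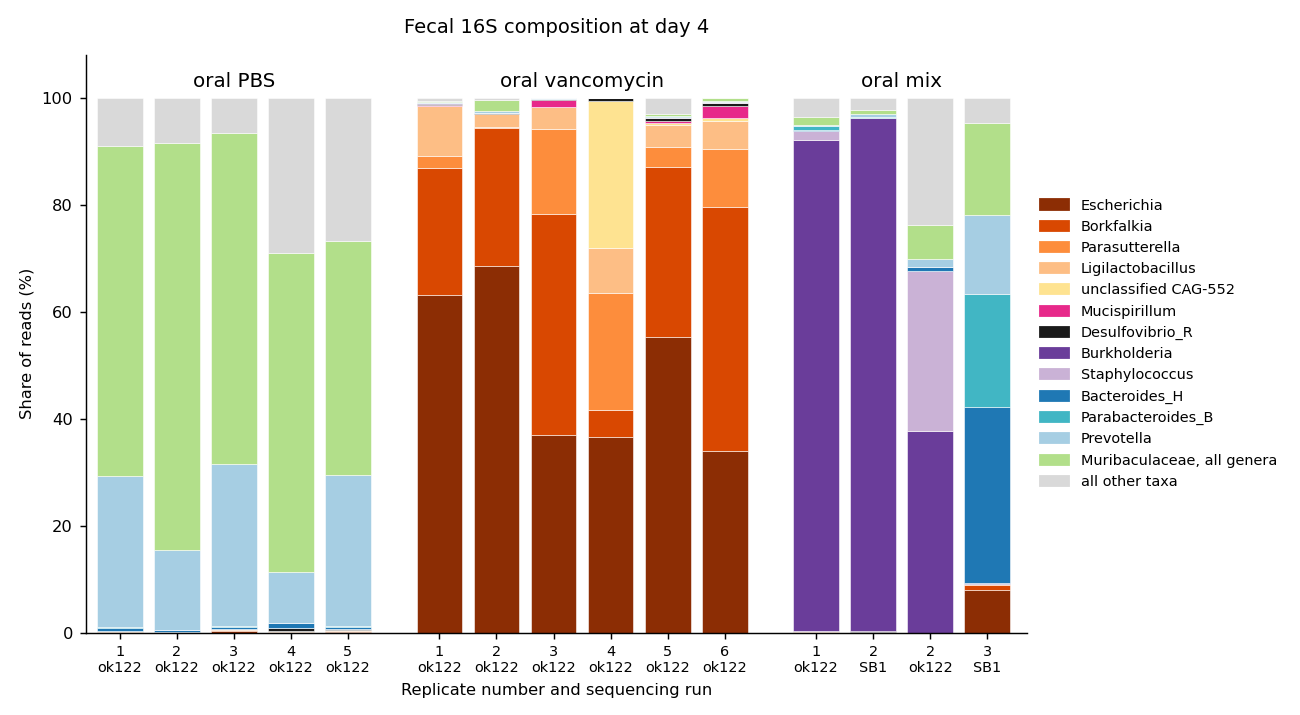
Share of reads (percent, vertical axis) taken by the 7 bloom genera, 5 other named genera, all Muribaculaceae and the remaining taxa in each oral PBS, oral vancomycin and oral mix sample of day 4; each bar is 1 fecal sample, marked with its replicate number and run. The vancomycin bars are filled by Escherichia, Borkfalkia and the other bloom genera, 3 of the 4 mix bars are led by Burkholderia, and mix replicate 3 is led by Bacteroides_H (32.9%).

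Among 95 genera, 13 (13.7%) differed between mix and vancomycin at an adjusted p under 0.05 (limma on log2(percent + 0.01), Benjamini-Hochberg over the 95 genera; 18 at an unadjusted p under 0.05). Of these 6 were higher (6.32%) and 7 lower (7.37%) in the mix. The 7 lower genera were the 7 bloom genera; both comparisons use the same vancomycin samples, and the overlap is therefore no independent support. The split into higher and lower moved with the scaling: it was 4 and 7 on centred log ratios, and 16 and 4 when Burkholderia was left out and shares were rescaled. Unless another pair is named, all log2 differences below are mix minus vancomycin on the log2(percent + 0.01) scale. The added 0.01 shrinks changes of rare genera. In the mix sample of 556 reads, however, a 0 enters as 0.01%, below its limit of 0.540%, which can enlarge a fall. Without libraries under 1000 reads the differences were -7.35 for Escherichia, -7.44 for Borkfalkia, -7.45 for Ligilactobacillus, -5.33 for Parasutterella and -2.97 for Desulfovibrio. In that setting 5 of the 7 bloom genera were called lower. The main fit takes its spread from all day 4 groups, not from mix and vancomycin alone. With only these 2 groups in the fit, limma adjusted p was 0.00263 for Borkfalkia, 0.0125 for Escherichia and 0.000178 for Ligilactobacillus. It was 0.0279 for Parasutterella, 0.0159 for Desulfovibrio and 0.0220 for Burkholderia. CAG-552 and Mucispirillum were then not called, and of the 6 higher genera only Burkholderia and UBA7173 were.

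Escherichia (named Escherichia_710834 in the table), a facultative anaerobe of the Enterobacteriaceae, was the leading genus under vancomycin. Its share in the 6 vancomycin samples was 63.0%, 68.6%, 36.9%, 36.5%, 55.2% and 34.0%. Under the mix it was 0.0583%, 0.0348%, 0% and 7.92% (in the order replicate 1, replicate 2 of run SB1, replicate 2 of run ok122, replicate 3). All 4 mix samples lay below every vancomycin sample, and over all reads 3 of them did not exceed the highest PBS sample (0.333%). The log2 difference was -8.56 (SE 1.66, limma adjusted p = 5.24e-05). Against oral PBS the mix differed by 1.97 on the log2 scale (95% interval -1.46 to 5.40, limma adjusted p = 0.359), an interval wide enough to hold both a lower and a much higher level. The 7.92% of replicate 3 rested on 6054 reads.

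Borkfalkia, a genus of Clostridia, was the second genus under vancomycin. Its shares there were 23.7%, 25.7%, 41.4%, 5.13%, 31.9% and 45.6%, against 0.0250%, 0.0713%, 0% and 0.903% in the mix samples in the same order as above. The groups did not overlap, and over all reads only mix replicate 3 again exceeded the highest PBS sample (0.231%). Borkfalkia fell by 8.39 on the log2 scale (SE 1.71, limma adjusted p = 8.03e-05). The unnamed genus of the related family CAG-552 was uneven under vancomycin, with 27.5% in replicate 4, 0.0534% to 0.471% in 4 samples and 0 in replicate 1. It had 0.0122% and 0.0144% in the SB1 samples of the mix and 0 reads in the ok122 samples. Its log2 difference was -4.02 (SE 1.28, limma adjusted p = 0.0272), but the groups overlapped. The call was lost without vancomycin replicate 4 (adjusted p = 0.189), vancomycin replicate 6 (0.0550), mix replicate 1 (0.0559) or mix replicate 2 of run ok122 (0.0749).

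Ligilactobacillus, a lactic acid bacterium of the gut in a family where resistance to vancomycin by nature is common, rose to a similar level in every vancomycin sample. The shares were 9.39%, 2.40%, 4.10%, 8.34%, 4.20% and 5.25%. Mix replicate 1 had 0.0917% (11 reads), replicate 2 of run SB1 had 0.0139% (8 reads), and the remaining mix samples had 0 reads. In replicate 3, with 76424 reads, a count of 0 allows a share of up to 0.00393%. The log2 difference was -7.84 (SE 1.07, limma adjusted p = 1.09e-08), and the groups did not overlap. Mix replicate 1 lay just above the highest PBS sample (0.0884%).

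Parasutterella, a Gram-negative commensal that does not ferment sugars, had shares of 2.37%, 0.187%, 15.9%, 21.9%, 3.67% and 10.8% under vancomycin. In the mix it had 0.0583%, 0.0505%, 0% and 0.288%. Replicate 3 of the mix was above the lowest vancomycin sample and above the highest PBS sample (0.0992%), so the groups overlapped by 1 sample. Parasutterella fell by 6.19 on the log2 scale (limma adjusted p = 8.03e-05). The table holds 2 Parasutterella rows, and both were present in 6 of 6 vancomycin samples. The row without a species was present in 1 of 4 mix samples and the row sp009767915 in 3 of 4.

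Mucispirillum, a mucus-dwelling spiral bacterium (all its reads were assigned to Mucispirillum schaedleri), had 0.0304%, 0%, 1.28%, 0%, 0.436% and 2.39% under vancomycin. The mix had 2 reads in replicate 2 of run SB1 (0.00348%), 4 reads in replicate 3 (0.00523%) and 0 in the others. The log2 difference was -3.47 (SE 1.14, limma adjusted p = 0.0289), with 2 vancomycin samples at 0. Without vancomycin replicate 3, 5 or 6, or mix replicate 1, 3 or 2 of run ok122, the call was lost (adjusted p 0.0521 to 0.143).

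Desulfovibrio (Desulfovibrio_R_446353), a sulfate-reducing genus, was low in every group but did not overlap between mix and vancomycin. Shares under vancomycin were 0.329%, 0.0980%, 0.137%, 0.608%, 0.482% and 0.504%, and under the mix 0.0333%, 0.0348%, 0% and 0.0209%. The 0% came from the library of 556 reads, whose limit of 0.540% is above every vancomycin share but 0.608%. For that sample the separation is therefore not established. The log2 difference was -3.46 (SE 0.82, limma adjusted p = 0.000865). No vancomycin sample exceeded the highest PBS sample, which had 403 reads of the genus, so the genus as a whole was called by the test but was not separated from PBS. Its reads lay in different rows of the table. In vancomycin samples all reads were in the row without a species (6 of 6 samples), which was at 0 in 4 of 4 mix samples. That row was 0.0980% to 0.608% under vancomycin and 0 to 0.0182% in PBS (above 0 in 2 of 5 samples), so it did separate vancomycin from PBS. The high PBS sample had its reads in another row, Desulfovibrio_R_446353 trichonymphae (0.0244% to 0.614% in PBS). In the mix the reads were in that trichonymphae row too (3 of 4 samples), which was at 0 in 6 of 6 vancomycin samples at day 4 but present in 5 of 6 of the same mice at day 0.

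**Figure D2:**
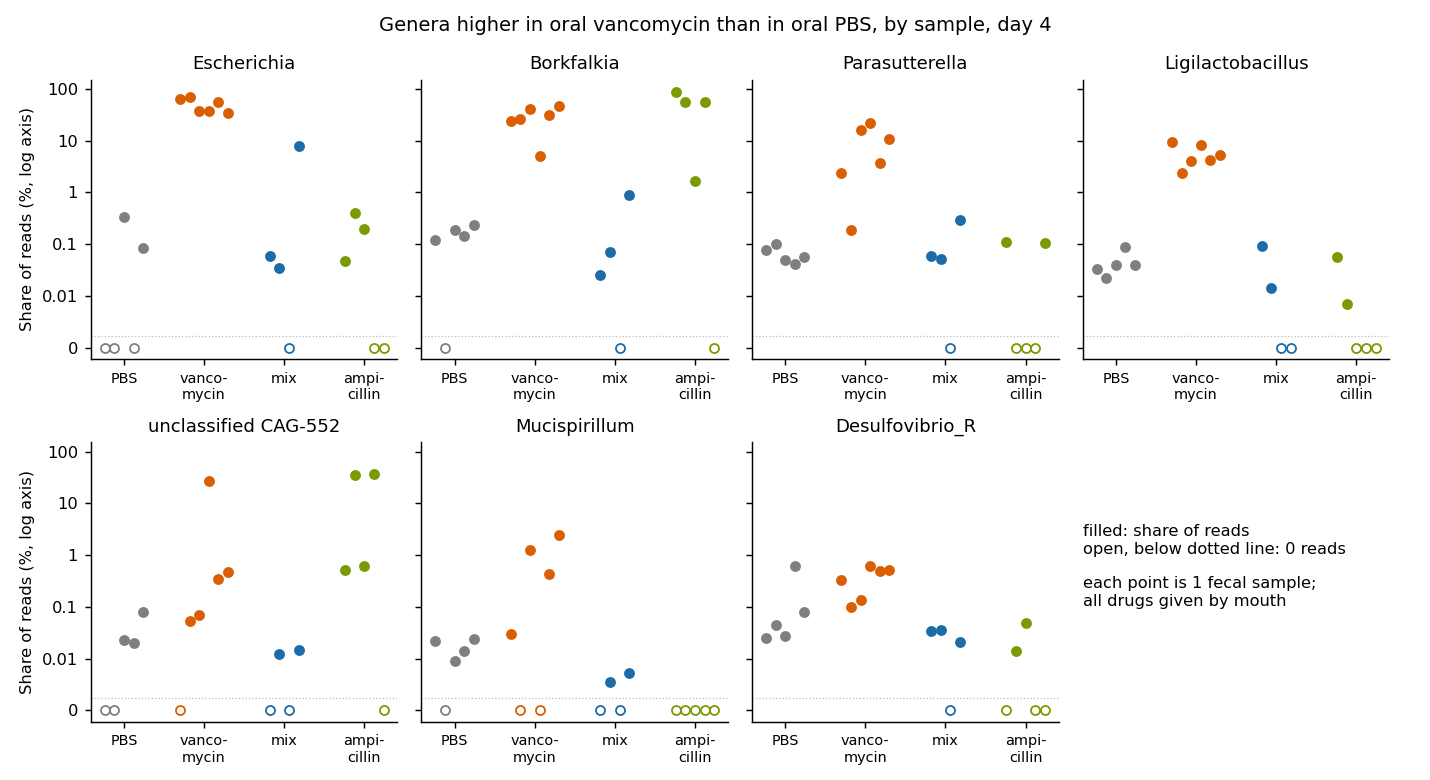
Share of reads (percent, log axis) of each of the 7 bloom genera in every oral PBS, oral vancomycin, oral mix and oral ampicillin sample of day 4; each point is 1 sample, and open points below the dotted line are samples with 0 reads of that genus. Mix points lie below every vancomycin point for Escherichia, Borkfalkia, Ligilactobacillus and Desulfovibrio_R, and the highest mix point for Escherichia, 7.92%, is replicate 3.

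No bloom genus was strictly absent from the mix, that is, at 0 reads in all 4 mix samples. Below genus rank, the Desulfovibrio row without a species, which rose under vancomycin, was at 0 in all 4. Of the 28 pairs of a bloom genus and a mix sample, 10 had 0 reads; over all 95 genera 60.5% of such pairs were at 0, so the share among bloom genera was no higher than the background. All 7 genera were at 0 in replicate 2 of run ok122. There the limit of 0.540% lies below every vancomycin sample for Escherichia, Borkfalkia and Ligilactobacillus, and above the lowest vancomycin sample for the other 4 genera. Over all reads, 24 of the 28 pairs did not exceed the highest PBS sample, where 93.9% of pairs over all genera did not. The bloom genera were chosen against these same PBS samples, so the share over all genera is no neutral background for them. Of the 4 pairs above PBS, 3 were in mix replicate 3 and the other was Ligilactobacillus in replicate 1. Between mix and PBS 0 of the 7 genera passed the limma fit (0 also at an unadjusted p under 0.05), in which 35 of the 95 genera (36.8%) did, 1 higher (1.05%) and 34 lower (35.8%). In 4 of the 7 genera all mix samples lay below all vancomycin samples. These were the only 4 of the 95 genera with such a separation (4.21%), and no genus was separated in the other direction. Shallow libraries limited both counts in advance. Only a genus above 0 in every vancomycin sample could be separated as lower. Vancomycin replicate 4 (1151 reads) held bloom genera alone. Only a genus above 0 in every mix sample could be separated as higher. Mix replicate 2 of run ok122 had 11 of 95 genera above 0. The share over the 95 genera is therefore no background for the 4.

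Burkholderia was the leading genus in 3 mix libraries and took most reads in 2 of them. It stood at 91.9%, 96.0%, 37.8% and 0.0903% in the mix, in the order given above, and at 0 to 0.0933% under vancomycin. With Burkholderia left out and shares rescaled, the bloom genera summed to 3.28%, 5.49%, 0% and 9.16% in the mix, under the 96.2% to 100% of the vancomycin samples and, in 3 of 4, above the 0.165% to 0.932% of PBS. Escherichia (-6.64, limma adjusted p = 0.00206), Borkfalkia (-6.48, 0.00292), Ligilactobacillus (-5.99, 5.41e-05) and Parasutterella (-4.24, 0.0140) remained lower in the mix. CAG-552 (-3.07, adjusted p = 0.0838), Mucispirillum (-2.77, 0.0808) and Desulfovibrio (-1.57, 0.229) no longer passed. On the rescaled shares Desulfovibrio reached 0.409% in mix replicate 1 and 0.864% in replicate 2 of run SB1. As a genus total, this is the level seen under vancomycin or above it. The totals join different rows, however. All mix reads were in the trichonymphae row, at 0 in every vancomycin sample, and the row that rose under vancomycin was at 0 in every mix sample.

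Against PBS the rescaled shares placed more of the bloom genera above the background than the shares over all reads did. Burkholderia was left out here, a step chosen after the data were seen for this comparison. Of the 28 pairs of a bloom genus and a mix sample, 14 then exceeded the highest PBS sample, where 15.2% of pairs over all 94 genera did. The bloom genera were chosen as higher under vancomycin than in these same PBS samples. The share over all genera is therefore no neutral background for them. Escherichia, Borkfalkia and Parasutterella each exceeded it in 3 of 4 mix samples and Ligilactobacillus in 2. Escherichia had 0.716% in replicate 1 and 0.864% in replicate 2 of run SB1, against at most 0.333% in PBS. Borkfalkia had 0.307% and 1.77% in these samples, against at most 0.231%, and Parasutterella 0.716% and 1.25%, against at most 0.0992%. Ligilactobacillus had 1.13% and 0.346%, against at most 0.0884%. In the limma fit on these shares 0 of the 7 bloom genera differed between mix and PBS at an adjusted p under 0.05, and 1 did at an unadjusted p under 0.05, while 17.0% of the 94 genera passed. That genus was Escherichia, 3.89 higher on the log2 scale (95% interval 0.40 to 7.39, limma adjusted p = 0.102).

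The day 0 libraries of the same mice gave a second reference. Mix replicate 3 had none, so the 3 mix mice are replicate 1 and both samples numbered 2, each led by Burkholderia at day 4. Shares are over all reads unless stated. Escherichia had 0 reads at day 0 in all 6 vancomycin mice and all 3 mix mice, and at day 4 it was above 0 in 6 of 6 and 2 of 3. Borkfalkia was higher at day 4 than at day 0 in 6 of 6 vancomycin mice (median 0.166% to 28.8%) and lower in 3 of 3 mix mice (0.363% to 0.0250%). With Burkholderia left out, its day 4 shares in mix replicate 1 and replicate 2 of run SB1, given above, were not lower than at day 0. The day 0 shares of Borkfalkia in these mice were 0.298% and 0.363%, with 0 reads of Burkholderia. Parasutterella and Ligilactobacillus were higher in 6 of 6 vancomycin mice, against 2 of 3 and 1 of 3 mix mice. CAG-552 was higher in 5 of 6 vancomycin mice and lower in 3 of 3 mix mice.

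For the remaining 2 bloom genera, day 0 gave another picture than PBS. Mucispirillum had a median of 1.08% at day 0 in the vancomycin mice and was higher at day 4 in 3 and lower in 3 of them. Desulfovibrio was higher at day 4 in 2 and lower in 4 of the 6, with medians of 0.414% and 0.406%. The genus total joins rows that moved in opposite directions: the row without a species was at 0 in 6 of 6 vancomycin mice at day 0 and above 0 in 6 of 6 at day 4, and the trichonymphae row was above 0 in 5 of 6 at day 0 and at 0 in 6 of 6 at day 4. Over all reads, both genera were lower at day 4 in 3 of 3 mix mice, replicate 3 having no day 0 library. With Burkholderia left out, Desulfovibrio in replicate 1 and replicate 2 of run SB1 was above its day 0 shares of 0.0963% and 0.135%. The test of the change from day 0 used shares over all reads and these 3 mix mice. With the change from day 0 as the measure, 4 bloom genera passed the limma test between mix and vancomycin: Escherichia (-10.56, adjusted p = 2.16e-06), Ligilactobacillus (-8.09, 1.14e-06), Borkfalkia (-11.70, 0.000200) and CAG-552 (-6.56, 0.00474). Parasutterella (-6.44, adjusted p = 0.0503), Mucispirillum (-2.86, 0.881) and Desulfovibrio (-2.68, 0.594) did not.

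**Figure D3:**
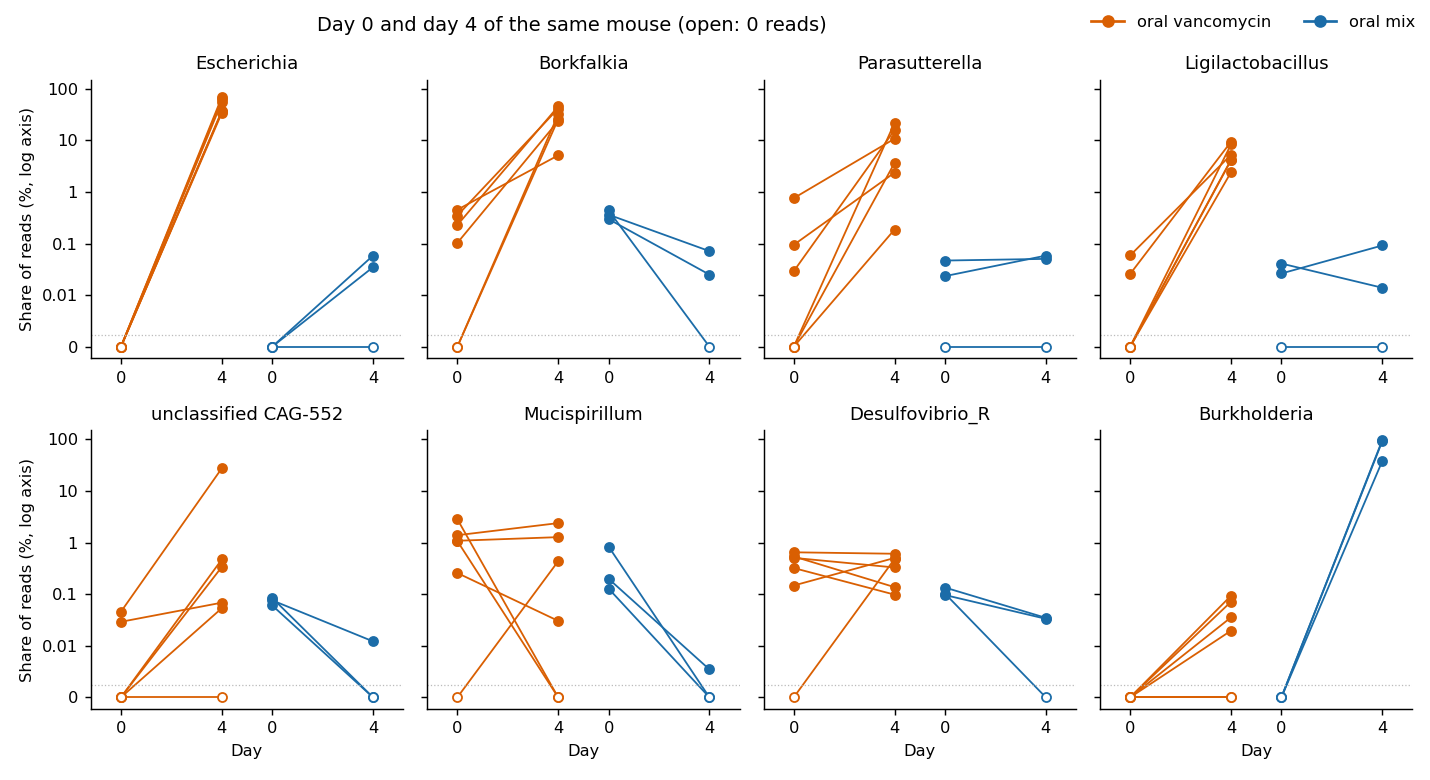
Share of reads (percent, log axis) at day 0 and day 4 of the same mouse for the 7 bloom genera and Burkholderia, with 6 oral vancomycin mice and 3 oral mix mice; each line is 1 mouse and open points are 0 reads. Escherichia starts at 0 in every mouse and ends between 34.0% and 68.6% under vancomycin, Mucispirillum and the genus total of Desulfovibrio_R have no common direction under vancomycin, and Burkholderia goes from 0 to between 37.8% and 96.0% in the mix mice.

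Besides the bloom genera, 6 genera were higher in the mix than under vancomycin. Burkholderia, found in soils and also as a contaminant of laboratory reagents, had the largest difference (8.71, SE 1.30, limma adjusted p = 1.11e-07). With only mix and vancomycin in the fit, the limma adjusted p was 0.0220. Burkholderia was the only genus higher in the mix than in PBS (10.24, adjusted p = 4.20e-09), where 4 of 5 samples had 0 reads. At day 0 it had 0 reads in the 3 mix mice, and its highest share in 107 day 0 libraries was 0.730%. In oral ampicillin it held 89.0% and 96.6% of 2 samples and at most 0.323% of the other 3. Over the list of genera often seen in reagents, on skin or in food, the 4 mix samples had 93.6%, 96.0%, 73.2% and 0.161%, and vancomycin samples at most 0.202%. What part reagent DNA had in these libraries was not tested.

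Staphylococcus, a genus of skin and mucosa, was above 0 in too few day 4 samples to be tested at genus rank. Its shares in the mix were 1.55%, 0.0244%, 29.9% and 0.0707%; in vancomycin samples it was 0 to 0.202%, in PBS 0, and it was at 0 in all 107 day 0 libraries. At family rank Staphylococcaceae were higher in the mix (4.15, limma adjusted p = 2.51e-05 over 39 families), with 44.6% in replicate 2 of run ok122. Streptococcaceae (3.28, adjusted p = 0.0258) had 4.86% in that sample and 0.125% in replicate 1, and were at 0 in 6 of 6 vancomycin samples. Both families were low in the deep SB1 samples (at most 0.0994%).

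The other genera higher in the mix are anaerobes that vancomycin samples nearly lacked. Bacteroides_H, which degrades complex polysaccharides, had 0.217%, 0.0557%, 0.719% and 32.9% in the mix and 0 reads in 5 of 6 vancomycin samples, with 0.0778% in replicate 5. Its log2 difference was 5.75 (SE 1.46, limma adjusted p = 0.00223), and without mix replicate 3 it was 3.95 (adjusted p = 0.106). Its largest row means in the mix were in a row without a species (5.61%) and in Bacteroides_H intestinalis (2.65%), each above 0 in 3 of 4 samples. These means rest almost wholly on replicate 3. Bacteroides_H acidifaciens (mean 0.180%) was above 0 in 1 of 4 mix samples. In PBS the row without a species (mean 0.290%) and Bacteroides_H rodentium (mean 0.243%) were each above 0 in 5 of 5 samples, and Bacteroides_H intestinalis was at 0 in all 5. Against PBS (mean 0.553%), Bacteroides_H with its mix mean of 8.47% did not pass (0.53, limma adjusted p = 0.823).

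Prevotella, a plant-fibre degrader, had 0.233%, 0.574%, 1.44% and 14.8% in the mix and 0% to 0.401% under vancomycin (3.78, SE 1.35, limma adjusted p = 0.0478). UBA7173 (4.40, adjusted p = 0.0289) and Muribaculum (4.14, adjusted p = 0.0368) belong to the Muribaculaceae, the family that leads the mouse gut community of PBS samples. UBA7173 had 0.157% to 3.37% in the mix and 0% to 0.202% under vancomycin; Muribaculum had 0.0278% to 2.16% and 0% to 0.258%. COE1, a genus of the Lachnospiraceae, had 0%, 0.224%, 0.540% and 0.135% in the mix and was above 0 in 1 vancomycin sample (3.04, adjusted p = 0.0478). All 6 genera had 3 mix samples above every vancomycin sample. Over all 95 genera, 10, 28, 9 and 58 lay above every vancomycin sample in the mix samples, in the order given above. The 6 genera were chosen by the same comparison, so their count is no independent support. Leaving out mix replicate 3 ended the calls of Bacteroides_H, Prevotella, UBA7173, Muribaculum and COE1 (adjusted p 0.106 to 0.459), and UBA7173, Muribaculum, Prevotella and COE1 were also lost without replicate 2 of run ok122 (0.0763 to 0.240). Single vancomycin samples ended these calls as well (adjusted p 0.0525 to 0.179): replicate 3, 4 or 5 for UBA7173, 3 to 6 for Muribaculum, any but 2 for Prevotella and any but 5 for COE1. Muribaculum was lost without mix replicate 1 (0.0559) and COE1 without replicate 2 of run SB1 (0.149).

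Of these anaerobes, Prevotella, UBA7173, Muribaculum and COE1 had mix means between those of vancomycin and PBS, and Bacteroides_H did not. The Bacteroides_H mean was set by mix replicate 3. Its mix median of 0.468% lay between the medians of vancomycin (0%) and PBS (0.507%). Prevotella (-3.94, limma adjusted p = 0.0240) and Muribaculum (-3.71, adjusted p = 0.0367) were lower in the mix than in PBS, where Prevotella had 9.54% to 30.3% and Muribaculum 2.63% to 8.11%. UBA7173 (-2.99, adjusted p = 0.106) and COE1 (-1.87, adjusted p = 0.177) did not pass against PBS. Parabacteroides_B, an anaerobe of the Tannerellaceae, had 0.850%, 0.0209%, 0% and 21.0% in the mix and at most 0.0622% under vancomycin and 0.0761% in PBS, and did not pass against vancomycin (3.16, adjusted p = 0.198). Akkermansia, a mucin degrader, had 0.00348% to 0.602% in the mix (mean 0.245%, against 0.0285% in PBS) and 2.67% in vancomycin replicate 5, and did not pass either (1.59, adjusted p = 0.798). No Enterococcus genus was among the taxa of the table used here.

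**Figure D4:**
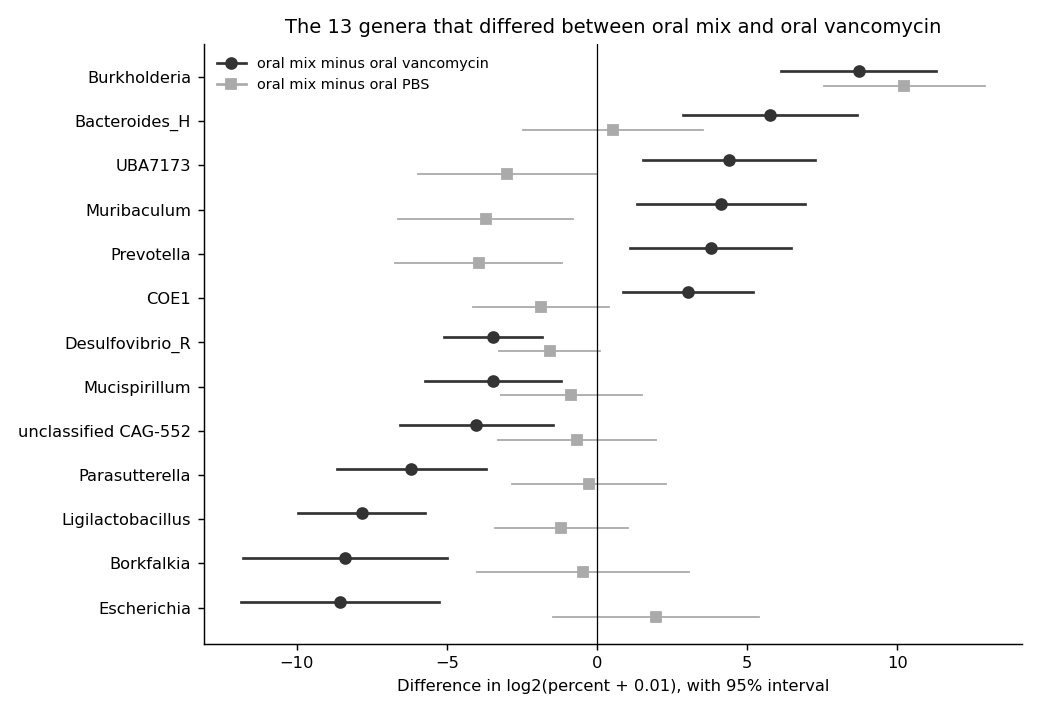
Difference in log2(percent + 0.01) with its 95% interval (horizontal axis) for the 13 genera that differed between oral mix and oral vancomycin; dark circles are mix minus vancomycin and grey squares mix minus PBS, both from the same limma fit. The 7 bloom genera lie below 0 against vancomycin with intervals against PBS that include 0, and Burkholderia lies above 0 in both (8.71 and 10.24).

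By taxon lists, few members passed in either direction. The median log2 difference over all 95 genera was 0.54 (0.71 without Burkholderia, -0.02 on centred log ratios), and 84 of them were above 0. In the Muribaculaceae 2 of 8 genera tested were higher and none lower (median 3.28), and in the Bacteroidaceae and Tannerellaceae 2 of 4 were higher (median 3.47). In the Lachnospiraceae 1 of 27 was higher (median 0.48), and in the Oscillospirales 0 of 14 passed (median 0.47). In the Rikenellaceae and Marinifilaceae 0 of 4 passed (median 1.63). Among lactic acid bacteria 1 of 4 genera, Ligilactobacillus, was lower (median -0.22), and in the Desulfovibrionaceae 1 of 3. In the Enterobacterales the 1 genus tested was lower, as were both genera of the Borkfalkia and CAG-552 list (median -6.20). Of gut Actinobacteria 0 of 2 passed (median 0.44) and of Akkermansiaceae 0 of 1. In each list with 0 calls by limma, 0 genera had an unadjusted p under 0.05. Of the reagent, skin and food list 1 of 2 genera tested, Burkholderia, was higher (median 5.94), and of the list without a cell wall the table used here held 0 genera.

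Families summed the anaerobes over many rare genera. Of 39 families 6 were higher and 7 lower in the mix. Muribaculaceae were higher (4.09, limma adjusted p = 0.0120), with 1.44%, 0.778%, 6.47% and 17.2% in the mix against 0% to 1.94% under vancomycin and 43.8% to 76.0% in PBS. Lachnospiraceae were higher too (3.83, adjusted p = 0.0269), with 0.0667%, 1.46%, 0.540% and 1.34% against 0% to 0.140%. Bacteroidaceae, which hold Bacteroides_H and Prevotella here, differed by 5.21 (adjusted p = 0.000359). The lower families were those of the 7 bloom genera, with Lactobacillaceae at -7.36 (adjusted p = 2.67e-07).

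The bacteria left beside the reagent, skin and food list differed among the mix samples. In replicate 1 the 767 remaining reads were led by Phocaeicola_A_858004 (45.4% of them), a relative of Bacteroides, and Parabacteroides_B (13.3%). In replicate 2 of run SB1 the 2273 remaining reads were led by an unclassified genus of Lachnospiraceae (15.6%) and Prevotella (14.5%). The 149 remaining reads of replicate 2 of run ok122 were led by Mammaliicoccus_319278 (55.0%), a relative of Staphylococcus, and then CAG-485 (8.05%) of the Muribaculaceae. Replicate 3 kept 76301 reads, led by Bacteroides_H (33.0%) and Parabacteroides_B (21.0%), and Escherichia made up 7.93%. Bacteroidota made up 89.0%, 46.0%, 36.2% and 86.8% of what remained in the mix, against 0% to 2.50% in vancomycin samples and 72.3% to 95.0% in PBS.

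Whole-community distances separated mix from vancomycin. The Bray-Curtis dissimilarity, which runs from 0 for equal to 1 for disjoint communities, averaged 0.970 between the groups, 0.691 within the mix and 0.317 within vancomycin. Group membership accounted for an R2 of 0.580 (exact permutation over 210 assignments, p = 0.00476, the smallest that 4 against 6 samples can give; 0.0119 adjusted over 3 comparisons). The mean distance to the group centroid was 0.444 in the mix and 0.209 in vancomycin, and the test also responds to such unequal spread. Within run ok122 alone, with 2 mix samples, R2 was 0.727 (exact permutation p = 0.0357); run SB1 held no oral vancomycin sample and gives no value.

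With the reagent, skin and food list left out, each mix sample was nearer to PBS than to vancomycin. Its mean distances to the PBS samples were then 0.780, 0.620, 0.743 and 0.662, and to the vancomycin samples 0.960, 0.956, 0.993 and 0.900. Over all reads, replicates 1 and 2 were near 1 from both groups (0.920 to 0.994).

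**Figure D5:**
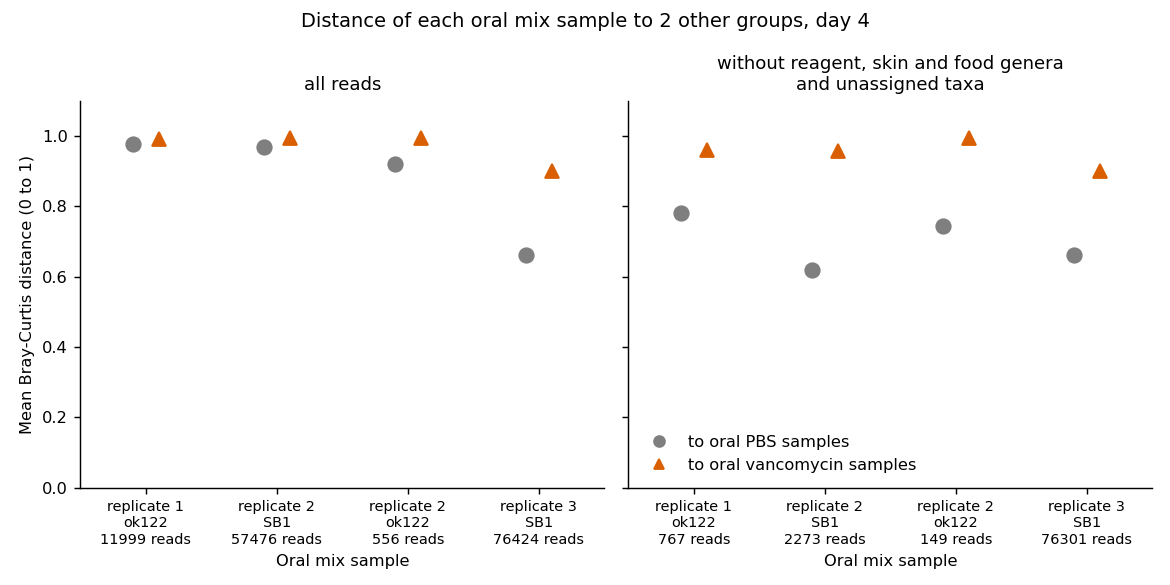
Mean Bray-Curtis distance (0 to 1) of each of the 4 oral mix samples to the 5 oral PBS samples (circles) and to the 6 oral vancomycin samples (triangles), over all reads (left) and after removal of unassigned taxa and of the reagent, skin and food list (right), with the number of reads kept under each sample. On the right the circles lie between 0.620 and 0.780 and the triangles between 0.900 and 0.993.

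Diversity gave no single answer. The Shannon index was 0.478, 0.315, 1.75 and 2.62 in the mix and 1.24 ± 0.237 (SD, n = 6) under vancomycin, a difference in means of 0.0496 (two-sided exact permutation p = 0.933). Mix samples lay both below and above all vancomycin samples. Without Burkholderia the index was 1.36 higher in the mix (two-sided exact permutation p = 0.00476), and it was 0.394 lower when replicate 3 was left out (exact permutation p = 0.262). The number of table rows above 0 was 39, 70, 19 and 115 in the mix and 20.3 ± 9.07 (SD, n = 6) under vancomycin (difference 40.4, exact permutation p = 0.0238). Depth was uneven in both groups, with mix libraries of 556 to 76424 reads and vancomycin libraries of 1151 to 20443. At 1000 reads, a depth that 3 mix samples reached, rows above 0 numbered 23 to 47 in the mix and 7 to 19 under vancomycin, a difference in means of 19.8 with no overlap (two-sided exact permutation p = 0.0238). Of the 95 genera tested, 25, 46, 11 and 68 were above 0 in the mix samples and a median of 16 in vancomycin samples.

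Oral ampicillin, the other drug of the mix that acts on the cell wall, shared some of these features. Its samples were not separated from the mix by distance (R2 0.212, exact permutation p = 0.159), and 4 of 95 genera (4.21%) differed in the limma fit, all lower in the mix. They were CAG-552 (-6.46, adjusted p = 0.000253), Borkfalkia (-6.23, 0.0223), Pelethenecus (-5.57, 0.000253) and CAG-314 (-3.79, 0.0427). Ampicillin samples held 85.2%, 55.6%, 1.67%, 56.4% and 0% Borkfalkia. The 2 Clostridia bloom genera were thus higher under ampicillin alone than under the mix, while Escherichia was at most 0.392% in ampicillin samples. In oral neomycin (n = 4) and oral metronidazole (n = 6) Escherichia had 0 reads in every sample and Borkfalkia at most 0.230% and 0.123%. Parasutterella reached 0.241% to 3.17% in oral neomycin. After injection of the mix into a vein (n = 6), Escherichia reached 18.0% and Borkfalkia 93.1% in their highest samples, with medians of 0.0329% and 0.250%; this was not compared with oral dosing by a test.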

How the data were processed

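DNA of mouse feces was amplified over the 16S V4 region with 30 to 35 PCR cycles and sequenced on a MiSeq, per the labels' protocols. The authors' deposited table lists 488 taxa as a signal that sums to 100000 in each library; how reads were filtered, and against which database taxa were named, is not given in the sources used here. Empty cells were set to 0. Groups came from the deposited sample sheets. Signals were turned into percent and summed to 316 genera; 95 genera above 0 in at least 20% of day 4 samples were tested with limma 3.58.1 (R 4.3.3, eBayes with trend) on log2(percent + 0.01), with 1 mean per antibiotic and route over 89 day 4 samples. The 89 count 2 pairs of near-identical libraries, none of the oral mix or oral vancomycin, once each. Reads were recovered as whole multiples of each library's smallest step (tolerance 0.02 reads); the smallest value was taken as 2 reads in 183 of 198 libraries, so depth is an estimate. Single values were tested by exact permutation. Bloom genera are those higher in oral vancomycin than in oral PBS at adjusted p under 0.05. Named genera are the bloom genera, up to 10 called per direction, the 5 most abundant of each group and Escherichia, Borkfalkia, CAG-552, Ligilactobacillus, Burkholderia, Akkermansia, Parabacteroides and Enterococcus; Phocaeicola, Mammaliicoccus, CAG-485, Pelethenecus, CAG-314 and the families were chosen after their values were seen. Members and lists were chosen with earlier results of these data known. The fit was tested on simulated data. The alternatives tried concern pseudocount, presence filter, samples in the fit, scaling, test, day 0 baseline, taxa counted, rank, depth, run and single samples.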

Additional observations from a re-analysis of the deposited data

Results flagged for a closer look

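In 32 groups of 4 to 6 samples of the named genera, 5 had a sample far from the others; chance alone gives about 1 in 20. Borkfalkia in vancomycin replicate 4 was 5.13%, against 23.7% or more in the other vancomycin samples; that library held 1151 reads. Burkholderia in mix replicate 3 was 0.0903%, against 37.8% to 96.0% in the other mix samples. Vancomycin replicate 5 stood apart for 3 genera: Bacteroides_H at 0.0778%, COE1 at 0.0726% and Akkermansia at 2.67%. The first 2 had 0 reads in the other 5 samples, where any value above 0 stands apart.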

How the results depend on the processing

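All 7 bloom genera kept the direction lower in the mix under every alternative in which they were tested, and Escherichia, Borkfalkia and Ligilactobacillus lost their call only in the exact permutation per genus. At these sizes the smallest p of that test is 0.00476, so a call among 95 genera needs several genera at that p. Its smallest adjusted p was 0.113, with 14 genera at an unadjusted p under 0.05. It gave 0 genera, 0 higher, 0 lower and 0 bloom genera. Against 13 genera (6 higher, 7 lower), counts were 7 (1 higher) with a pseudocount of 0.1, 10 higher with 0.001, 28 (21 higher) without the presence filter, 7 (2 higher) with only the 2 groups in the fit, 6 (2 higher, 4 lower, all 4 bloom genera) for the change from day 0, 13 higher and 4 lower (4 bloom genera) without the reagent list, 20 (16 higher, 4 lower, 4 bloom genera) without Burkholderia, 8 (2 higher) after thinning to 1000 reads, and 8 (2 higher) within run ok122. Leaving out single samples gave 8 to 15 genera, 2 to 8 higher, 5 to 7 lower and 5 to 7 bloom genera; it gave 8 without vancomycin replicate 3, 4 or 6, mix replicate 3 or mix replicate 2 of run ok122. Pairs of a bloom genus and a mix sample above the highest PBS sample went from 4 to 14 without Burkholderia. Of the 20 calls without Burkholderia 9 were among the 13, and of the 8 within run ok122 7 were.

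The Shannon difference (0.0496) was -0.294 on families, -0.123 after thinning, -0.128 within run ok122, -0.103 without libraries under 1000 reads, -0.0250 on genera, 1.33 without the reagent list, 1.36 without Burkholderia, 40.4 rows when richness took its place, and -0.394 to 0.375 over single samples left out (-0.394 without mix replicate 3, -0.103 without mix replicate 2 of run ok122, -0.0166 without vancomycin replicate 2); R2 ranged from 0.555 to 0.758 there. The cause of these changes was not tested. Same-numbered samples of the 2 groups are different mice and their deviations correlated at -0.200 to 0.212, so the replicate number does not pair them; with the replicate block 9 genera passed (2 higher, 7 lower). A planned count model on recovered reads was not run, since the estimated depth did not allow it. With 4 mix samples, 1 of 556 reads and 2 in a run without vancomycin samples, a difference between runs within the mix cannot be told apart from one between mice.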

Other observations

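Without the presence filter, 3 further genera were higher under oral vancomycin than in oral PBS. Filifactor (0.0203% in 1 vancomycin sample) and Alloprevotella (0.0178% in 1 vancomycin sample) had 0 reads in all 4 mix samples and all 5 PBS samples; each rests on 1 sample at a few reads. Staphylococcus, above 0 in 4 vancomycin samples, was above 0 in all 4 mix samples.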
